A study of Saccharomyces cerevisiae with 6 samples.

Results

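The genes described here encode the proteins of the cytosolic ribosome of budding yeast. Members were all genes with a symbol of the RPL, RPS or RPP0, RPP1 and RPP2 series that a probe set names alone, with the probe set of highest mean signal taken for each gene. This rule took 121 of the 5420 genes tested. One of them, RPP1, is titled in the deposited annotation as a subunit of the RNA-processing enzymes RNase MRP and RNase P, so 120 genes are ribosomal, 70 of the large subunit and 50 of the small subunit. The other 17 of the 137 ribosomal protein genes in the RefSeq annotation of assembly R64 have no probe set of their own in the deposited table.

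Expression was measured in 3 cultures grown with myriocin (Myriocin) and in 3 cultures grown without it (No-myriocin), described as biological replicates. All 6 cultures were of strain DBY746, wild-type by its label, in SDC medium at pH 6 and 30 °C, inoculated at 0.002 and collected at 2 A600 units per ml. Myriocin, which blocks the enzyme that starts sphingolipid synthesis, serine palmitoyltransferase, was present at 300 ng/ml throughout growth, and both groups contained 0.3% ethanol, its solvent. Each culture gave 1 single-colour array, read as log2 signal per probe set. The comparison asks how transcript levels differ in cells grown with the inhibitor.

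Yeast ribosomal protein genes are among the most strongly transcribed genes of a growing cell. The activator Rap1, with Fhl1 and its partner Ifh1, binds most of their promoters, and Sfp1 and the kinases TORC1, Sch9 and protein kinase A set their output to nutrients and growth rate. Most of the proteins are encoded by a pair of paralogs, A and B, that remain from an ancient whole-genome duplication, while the rest are encoded by a single gene. Many of these genes carry introns, and some of the proteins bind their own pre-mRNA and limit its splicing.

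The median log2 signal of all genes lay between 11.06 and 11.08 on the 6 arrays, and the ribosomal protein genes had mean log2 signals between 11.4 and 15.7, against a highest signal of 15.83 to 15.88 on each array. Every one lay far above the highest signal of the array's negative controls, 1.37. Signals within 1 log2 unit of the array maximum were read for 72, 73 and 62 of the 120 genes on the Myriocin arrays and for 88, 90 and 88 on the No-myriocin arrays. How far a signal near the top of the scale compresses a fold change was not tested. A probe set has its own response, so levels are compared here only between arrays for the same probe set, and differences in signal between probe sets are given as a property of the array, not of the transcripts.

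Ribosomal protein transcripts were slightly lower in cells grown with myriocin, in nearly the whole family and in both subunits, on the deposited scale. The median log2 fold change of the 120 genes, Myriocin minus No-myriocin, was -0.185, with quartiles at -0.257 and -0.136, against -0.029 over all 5420 genes. The sign was negative for 118 genes, and 118 changed by less than 0.5 on the log2 scale. Measured in whole cultures, less of a transcript in each cell and fewer cells that make it cannot be told apart. By limma with Benjamini-Hochberg adjustment over all genes, 48 of the 120 genes fell (40%) and 0 rose, while 28.8% of all genes fell and 25.5% rose. At an unadjusted limma p under 0.05, 66 were lower and 1 higher, against 1738 and 1543 of all 5420 genes. In 110 genes every Myriocin array read below every No-myriocin array, and in 0 genes the reverse held, where the shares over all genes were 35.8% and 30.6%.

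The size and direction of so small a shift depended on how the arrays were scaled. The phage cre controls, labelled RNAs added to each array whose signals are near those of the ribosomal protein genes, read 14.16 to 15.22 on average in Myriocin arrays and 14.34 to 15.27 in No-myriocin arrays. Their 6 log2 fold changes lay between -0.18 and -0.04 (limma, 0 called). Scaling the arrays to them moved the median of all genes to 0.08 and that of the ribosomal protein genes to -0.08. Then 4 ribosomal protein genes fell and 1 rose, against 21.1% and 29.7% of all genes. In 43 genes the Myriocin arrays lay wholly below and in 1 wholly above, against 26.7% and 36% of all genes. The other 21 hybridisation controls had log2 fold changes between -0.96 and -0.13, and 10 of them were called lower by limma. Their mean signals in Myriocin arrays ran from 1.81 to 13.69, mostly far from those of the ribosomal protein genes. Scaling to all 27 hybridisation controls moved the median of all genes to 0.28 and turned that of the ribosomal protein genes to 0.12. Then 2 fell and 2 rose, against 12.3% and 39.7% of all genes, and 3 lay wholly below and 9 wholly above, against 14.9% and 47.7%. The ribosomal protein median minus that of all genes was -0.156, which scaling whole arrays cannot move, and -0.098 after quantile normalisation, which can.

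The Myriocin arrays spread widely for so small a shift. The median deviation of the 120 genes from their own 6-array means was -0.10, -0.03 and -0.16 on Myriocin arrays 1, 2 and 3, and 0.09, 0.12 and 0.07 on No-myriocin arrays 1, 2 and 3. The groups did not overlap, but Myriocin array 2 lay nearer to the No-myriocin arrays than the other Myriocin arrays did. Without No-myriocin replicate 2, the call was kept for 8 of the 48 genes and 0 rose, where 21.7% of all genes fell and 20.3% rose, although the median was still -0.175. Without another array 19 to 42 genes fell, beside 1284 to 1401 of all 5420 genes. Of these settings, only that without Myriocin replicate 2, where 42 fell beside 1401, gave the family a larger share than all genes. With same-numbered cultures paired as a block 31 fell and 0 rose, where 27.1% of all genes fell and 25.4% rose. The 8 genes, among them RPL18B, RPL22A, RPL22B, RPL9A, RPL43B, RPS11A and RPS25B, were the only ones called at every setting other than the scalings to controls and a stricter p. RPL18B and RPL22B were called at every setting.

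**Figure D1:**
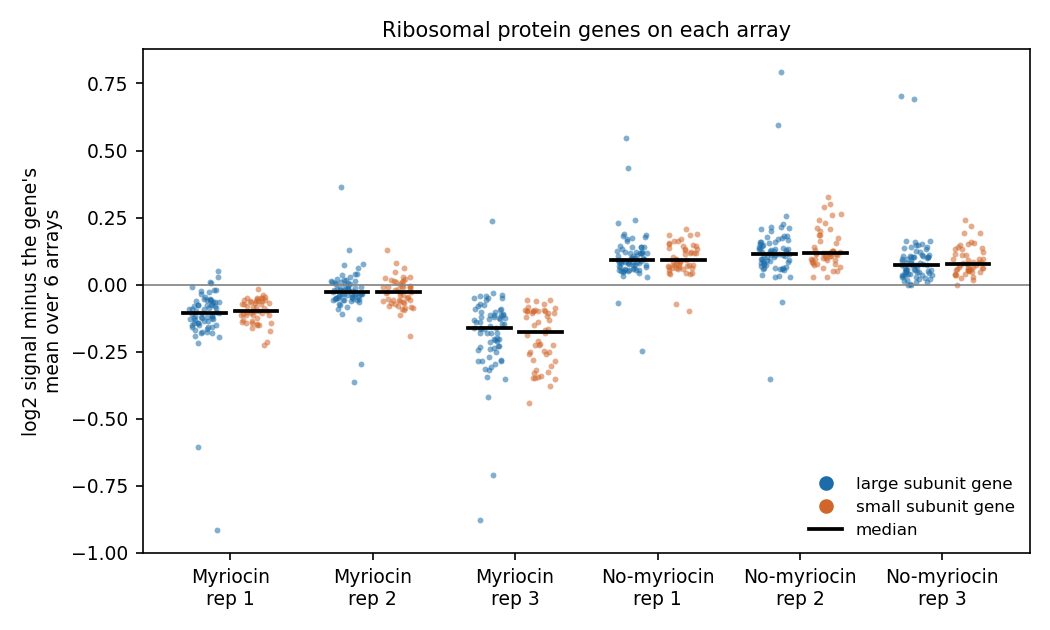
Each point is 1 ribosomal protein gene on 1 array, as its log2 signal minus the gene's mean over the 6 arrays, with large subunit genes in blue, small subunit genes in orange and medians as bars. The medians lie below 0 on the 3 Myriocin arrays and above 0 on the 3 No-myriocin arrays in the deposited values. With all hybridisation controls as the standard the family's median change is positive.

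Genes outside the family that also had high signals moved in both directions. Of the 319 genes outside the family with a mean log2 signal of 14 or more, 62 fell (19.4%) and 72 rose (22.6%), with a median log2 fold change of -0.002. Of the 115 ribosomal protein genes above the same limit 46 fell and 0 rose, with a median of -0.188. The median signal was 14.48 for the genes outside and 15.01 for the ribosomal protein genes, so the groups are not matched for signal. The array's 17 control probe sets against ribosomal RNA were lower in Myriocin arrays in 16 cases by limma, with a median log2 fold change of -1.61. Their part in the ribosomal protein values was not tested.

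The cells also differed in a marker of growth state. All 10 of a list of glucose-repressed genes, among them the lactate transporter gene JEN1 and the alcohol dehydrogenase gene ADH2, rose by limma. One of them, MLS1, averaged 1.31 in No-myriocin arrays, below the highest negative control, and several others lay close to it, so their folds are not given. Their mean log2 signal was 10.11, 8.39 and 9.29 on Myriocin arrays 1, 2 and 3 and 4.63, 4.56 and 4.48 on No-myriocin arrays 1, 2 and 3. The groups lay far apart. Within the Myriocin group array 2 had the lowest value and the highest ribosomal protein signals. Array 1 had the highest value, and ribosomal protein signals were lowest on array 3. The order of 3 arrays cannot show whether these values go together. Single genes of the list also varied between Myriocin arrays, with an SD of up to 1.97, for FBP1. The part of growth state in the ribosomal protein values was not tested.

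Both subunits shifted by nearly the same amount. Of the 70 large subunit genes 29 fell, with a median log2 fold change of -0.185. Of the 50 small subunit genes 19 fell, with a median of -0.185, where 28.8% of all genes fell. After quantile normalisation 20 large and 10 small subunit genes fell, beside 1630 of all 5420 genes. With all hybridisation controls as the standard 2 and 0 fell, beside 12.3% of all genes. The difference between the medians, large minus small, was -0.0004. Taken per array, the large minus small difference of the median deviations averaged 0.0026 ± 0.011 in Myriocin arrays and -0.0022 ± 0.0027 in No-myriocin arrays (SD, n = 3 each). No gap between the subunits larger than the spread between replicates was measured.

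The classes of gene within the subunits differed mainly in how widely their members scattered. The 5 genes of the ribosomal stalk, the acidic P proteins that recruit elongation factors to the large subunit, had log2 fold changes between -0.21 and -0.11, and 1 of them, RPP2A, fell (SE 0.07, limma adjusted p = 0.0434). The 19 single-copy genes lay between -0.24 and -0.04, with 4 called. Both counts are smaller shares than the 28.8% of all genes that fell. The 4 were RPL5, whose protein carries 5S ribosomal RNA into the large subunit, RPL29, RPL38 and RPS13, with log2 fold changes of -0.24, -0.22, -0.22 and -0.20. RPL3, which encodes a protein at the peptidyl transferase centre, stood at -0.17 (adjusted p = 0.0819 by limma). RPS31, which encodes a fusion of ubiquitin and a small subunit protein, stood at -0.15 (adjusted p = 0.0738 by limma). Of the 100 genes with a measured paralog 44 fell, against 28.8% of all genes, and their log2 fold changes ran over the whole range of the family, from -1.28 to 0.39. The 5 calls of RPP2A, RPL5, RPL29, RPL38 and RPS13 were lost with the replicate numbers as a block and with both scalings to controls. Those of RPL38 and RPS13 were also lost without each of the 6 arrays in turn. Those of RPP2A, RPL5 and RPL29 were lost without 5 of the 6. Quantile normalisation ended the calls of RPL29, RPL38 and RPS13.

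**Figure D2:**
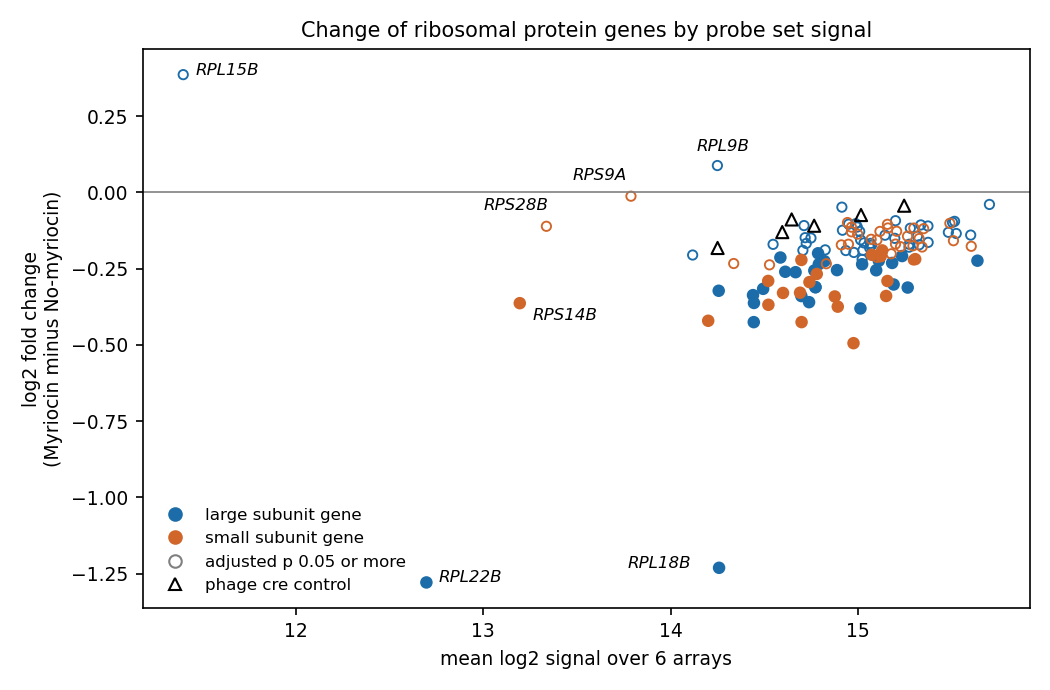
Log2 fold change (Myriocin minus No-myriocin) of the 120 ribosomal protein genes against their mean log2 signal over 6 arrays, filled where limma's adjusted p was under 0.05, with the 6 phage cre controls as triangles. Most genes lie in a band just below 0 that overlaps the controls, RPL22B and RPL18B lie below -1.2 and RPL15B lies above 0; with all hybridisation controls as the standard the band lies above 0.

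A pair of B paralogs stood apart from this narrow band. RPL22B had log2 signals of 11.78, 12.40 and 11.99 in Myriocin arrays and 13.13, 13.49 and 13.39 in No-myriocin arrays. Every Myriocin value was lower than every No-myriocin value by more than either group's own range. RPL22B fell by 1.28 on the log2 scale (limma adjusted p = 0.00183, SE 0.18, n = 3 against 3), or 2.43-fold lower. Rpl22 is a non-essential large subunit protein that, in yeast, represses the splicing of the RPL22B transcript. Its main source, RPL22A, had signals of 14.34, 14.40 and 14.26 in Myriocin arrays and 14.63, 14.69 and 14.63 in No-myriocin arrays, also without overlap. On the deposited scale RPL22A fell by 0.32 (SE 0.07, limma adjusted p = 0.0102). That call was lost with both scalings to controls (limma adjusted p of 0.0894 and 0.966).

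RPL18B, which encodes a large subunit protein, had log2 signals of 13.65, 13.89 and 13.38 in Myriocin arrays and 14.81, 14.85 and 14.96 in No-myriocin arrays. The No-myriocin arrays lay close together, and all 3 Myriocin arrays lay well below them. RPL18B fell by 1.23 on the log2 scale (limma adjusted p = 0.000866, SE 0.14, n = 3 against 3), or 2.35-fold lower.

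The next 10 genes in the order of decrease were all members of pairs, and 9 are named here. RPL13A and RPS26B fell by 0.43 each. Rps26 is a small subunit protein that contacts the mRNA at its exit channel. RPS25B fell by 0.42, and Rps25 is a small subunit protein needed for initiation at some viral RNA elements. RPL9A fell by 0.38, and RPS7B and RPS27A fell by 0.37 each. RPS14B, RPL17B and RPL21B fell by 0.36 each. Rps14 lies at the platform of the small subunit and represses the splicing of RPS14B pre-mRNA, and Rpl17 lines the exit of the peptide tunnel. None of the 12 genes' groups overlapped, where 110 of the 120 members and 35.8% of all genes lay wholly lower in Myriocin arrays. The 12 were chosen by their change on these same arrays, so this is only a description. Without No-myriocin replicate 2 the calls of RPS26B, RPS7B, RPS27A and RPL21B were lost, with limma adjusted p of 0.075, 0.0574, 0.0573 and 0.052. Those of RPL13A, RPL17B and RPS14B were lost without 2, 3 and 4 of the single arrays, at adjusted p up to 0.0643, 0.0701 and 0.107. Apart from RPL22B and RPL18B, the scaling to all hybridisation controls ended the call of each of the 12.

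At the other end, 2 genes had positive log2 fold changes, RPL15B and RPL9B, and neither passed the test. RPL15B, which encodes large subunit protein Rpl15, had log2 signals of 11.38, 11.76 and 11.64 in Myriocin arrays and 11.15, 11.05 and 11.42 in No-myriocin arrays. Its groups overlapped in 1 pair of arrays, Myriocin replicate 1 and No-myriocin replicate 3. The log2 fold change was 0.39 (SE 0.14, limma adjusted p = 0.0588), and the adjusted p ranged from 0.012 to 0.169 over the settings tried. It passed without Myriocin replicate 1 (adjusted p = 0.0335) or No-myriocin replicate 3 (0.0308), and with both scalings to controls. With an intensity trend in the fit, or without the dimmest 25% of genes, 1 of these 2 genes also passed. RPL15A had signals of 14.71, 14.80 and 14.62 in Myriocin arrays and 14.995, 14.94 and 14.87 in No-myriocin arrays, without overlap. It fell by 0.23 (SE 0.08, limma adjusted p = 0.0492), a call that was lost without each of 5 of the 6 arrays in turn and under the replicate block.

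The remaining genes at the upper end lay near 0 and none passed the test. The log2 fold change was 0.09 for RPL9B (adjusted p = 0.352 by limma), -0.01 for RPS9A and -0.04 for RPL39, whose protein lines the peptide exit tunnel. RPL2A stood at -0.05, and RPL11A and RPL40A stood at -0.09 each. Rpl11 binds 5S ribosomal RNA beside Rpl5, and RPL40A encodes ubiquitin fused to a large subunit protein. RPL32, RPS26A, RPS24A, RPL26A and RPL34B lay at -0.10 each. Scaling to all hybridisation controls turned each of the negative values positive, up to 0.296 for RPS9A. It put RPL9B at 0.397, where that gene passed the test.

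Paralogs of a pair can be set against each other on the same array, where any scaling of the whole array cancels. For each of 50 measured pairs the A minus B difference of log2 signals was taken on every array, and its shift between groups was compared. The difference itself includes the response of each probe set, so only its shift carries information on the transcripts. The difference did not overlap between groups for 30 pairs (60%), 18 with A relatively higher in Myriocin arrays and 12 with B relatively higher. Over all pairs of the 5420 genes tested this share was 68.3%, so the share among paralogs lay below that background. With 3 arrays per group the smallest two-sided p of an exact permutation test is 0.1, and each of the 30 pairs had it. In a limma fit of the differences together with all genes, 10 of the 50 pairs passed. The share that would pass among all pairs of genes was not counted, so 10 cannot be called many or few.

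Most shifts were small. The median absolute shift was 0.123 log2 units, 38 pairs moved by less than 0.2, and 3 moved by more than 0.5. Both genes of a pair fell in 9 pairs, A alone in 12, B alone in 14 and neither in 15, counted in the fit of single genes. The probe set of lower signal belonged to the gene with the more negative change in 32 of 50 pairs, and in 8 of the 10 largest shifts. Across the 120 genes the log2 fold change and the mean signal had a Spearman rho of 0.425 and a Pearson r of 0.208. The genes share the same 6 arrays and the same upper limit of the scale, so this is a description. The part of signal in the paralog shifts was not tested.

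Among the pairs named here, RPL22 had the widest shift, with differences of 2.56, 2.00 and 2.27 in Myriocin arrays and 1.501, 1.20 and 1.24 in No-myriocin arrays. The shift was 0.96 (SE 0.19, limma adjusted p = 0.0036, exact permutation p = 0.1). On the deposited scale both paralogs fell, RPL22B by more, and only RPL22B kept its call with the scalings to controls. RPL22B has the probe set of lower signal, and RPL22A lies nearer to the array maximum.

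RPL15 and RPL9 shifted the other way, with A falling relative to B. The RPL15 difference was 3.33, 3.03 and 2.98 in Myriocin arrays and 3.84, 3.89 and 3.45 in No-myriocin arrays, a shift of -0.61 (SE 0.18, limma adjusted p = 0.0174, exact permutation p = 0.1). In both pairs the paralog with the probe set of higher signal had the more negative change, unlike the other 8 of the 10 largest shifts. The RPL9 difference was 0.55, 0.58 and 0.46 in Myriocin arrays and 1.06, 1.01 and 0.92 in No-myriocin arrays. These values were tightly grouped, and the shift of -0.47 (SE 0.05, limma adjusted p = 0.00276, exact permutation p = 0.1) was many times the spread within either group.

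**Figure D3:**
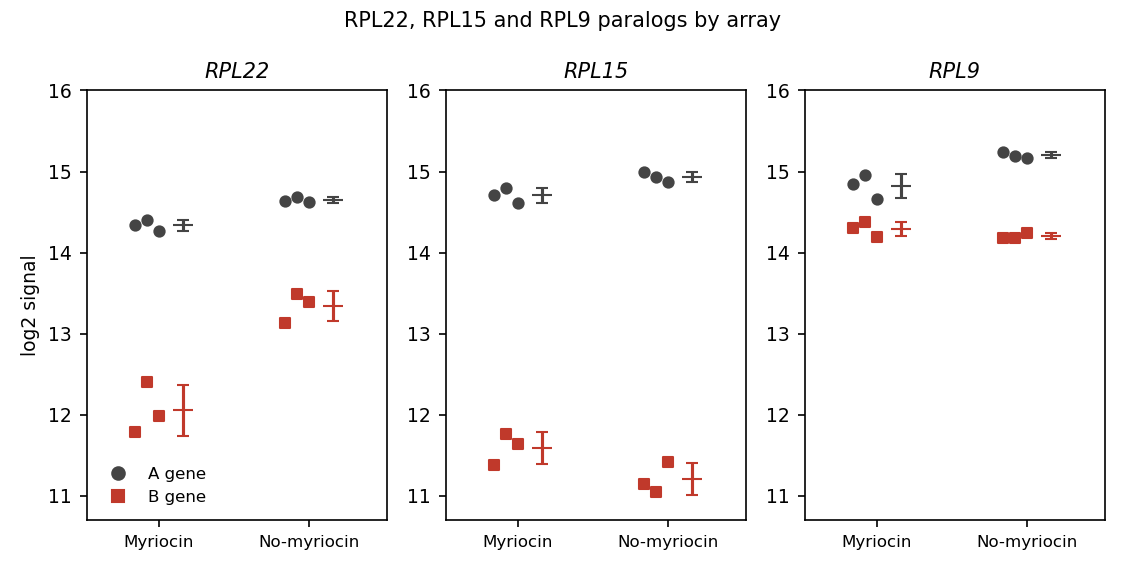
Log2 signal of the A (grey circles) and B (red squares) genes of 3 paralog pairs on each of the 3 Myriocin and 3 No-myriocin arrays, with the mean and SD of each group beside the points. RPL22B differs more between the groups than RPL22A does, and RPL9A is lower in Myriocin arrays while the groups of RPL9B overlap; heights of different probe sets are not comparable.

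Other pairs called were RPS26, RPS25 and RPL17, with shifts of 0.33, 0.30 and 0.22, and RPL13 and RPS27, with shifts of -0.32 and -0.24. Their limma adjusted p lay between 0.0127 for RPS25 and 0.0466 for RPS27. In the RPS26, RPS25 and RPL17 pairs the B gene fell and the A gene did not pass the test, with log2 fold changes of -0.10 for RPS26A, -0.12 for RPS25A and -0.14 for RPL17A. In the RPL13 and RPS27 pairs the A gene fell, while RPL13B stood at -0.11 and RPS27B at -0.13.

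Pairs whose transcripts are known to regulate themselves did not all separate. The RPS14 difference was 2.04, 1.82 and 2.17 in Myriocin arrays and 1.86, 1.69 and 1.85 in No-myriocin arrays, which overlapped, with a shift of 0.21 (95% interval -0.11 to 0.53, exact permutation p = 0.3). For RPS9, another pair under splicing autoregulation, the shift was 0.17 (95% interval 0.04 to 0.29) without overlap, but the pair did not pass limma's test. In RPS28, whose protein promotes the decay of RPS28B mRNA, the shift was -0.02 (95% interval -0.23 to 0.19). RPL24, RPL36 and RPL31 had the other smallest shifts, at -0.02, -0.02 and 0.00. Their 95% intervals ran from -0.12 to 0.08, from -0.18 to 0.15 and from -0.23 to 0.23, so shifts of that size were not detectable with 3 arrays per group. Both RPL24 genes fell, by 0.26 for RPL24A and 0.24 for RPL24B.

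**Figure D4:**
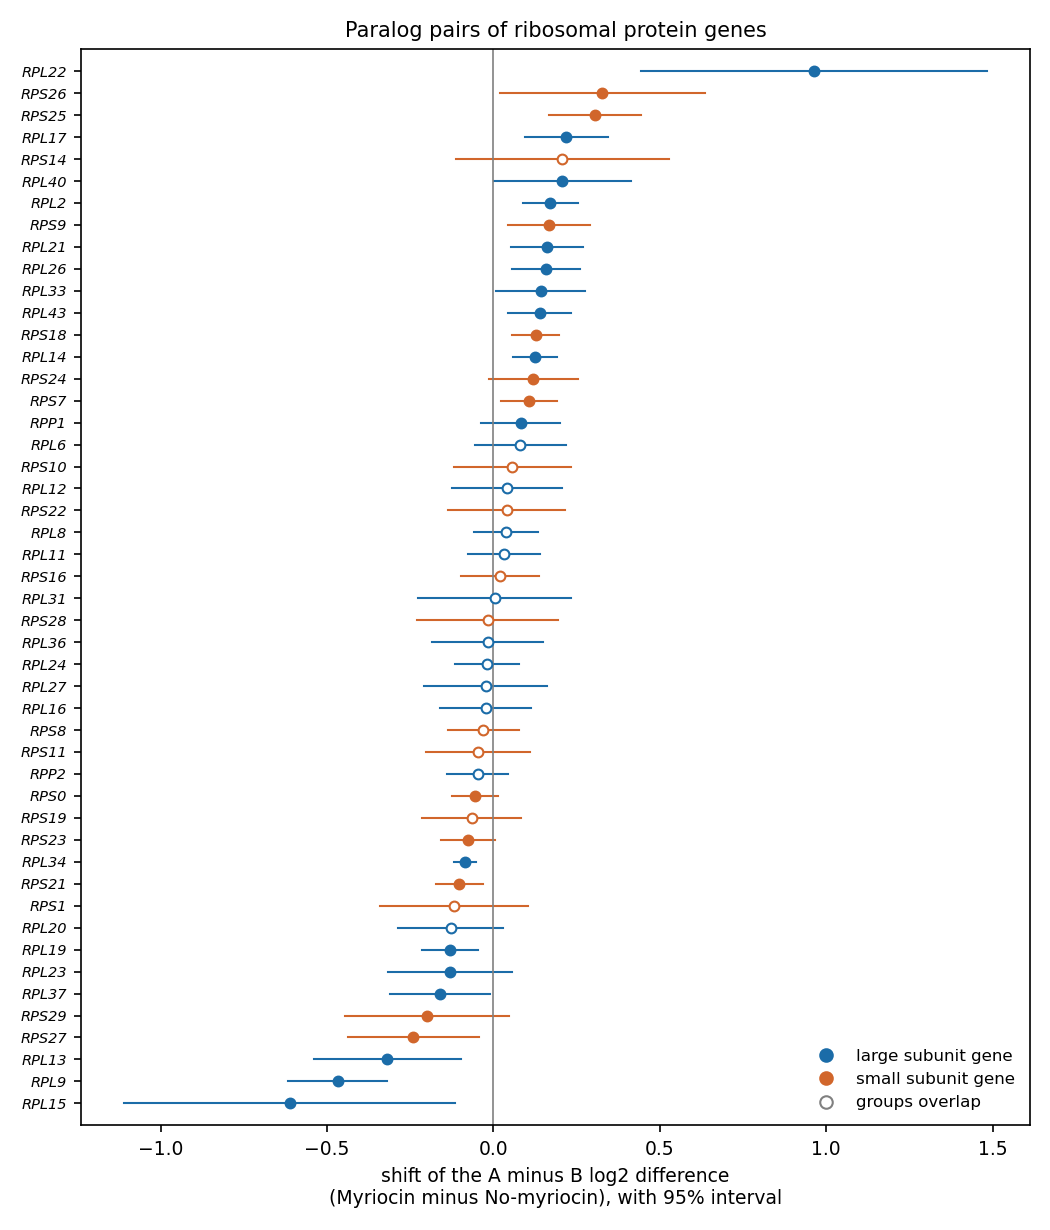
Shift of the A minus B log2 difference (Myriocin minus No-myriocin) for 48 of the 50 paralog pairs with its 95% interval, large subunit pairs in blue and small subunit pairs in orange, filled where the 3 Myriocin and 3 No-myriocin values did not overlap. RPL22 lies at 0.96, RPL15 and RPL9 lie below -0.4, and 38 pairs lie within 0.2 of 0.

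Probe sets that name both genes of a pair were left out of these counts and gave a separate reading. All 23 of them had negative log2 fold changes in the deposited values, with a median of -0.14, and 4 passed limma's test in a fit of all probe sets, a smaller share than the 28.8% of all genes that fell. They include all 17 of the genes with no probe set of their own, such as RPL7A and RPL7B with -0.21 (adjusted p = 0.0296) and RPS6A and RPS6B with -0.16 (adjusted p = 0.0634). The widest was that of RPL41A and RPL41B, which encode the smallest ribosomal protein, at -0.50 (SE 0.23, adjusted p = 0.112). RPP1, the RNase MRP and RNase P subunit that shares the naming scheme, had log2 signals of 7.92, 8.22 and 7.89 in Myriocin arrays and 8.81, 8.87 and 8.61 in No-myriocin arrays. It fell by 0.76 (SE 0.12, limma adjusted p = 0.00297), with no overlap.

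Genes that control the ribosomal protein genes moved in both directions. Of 16 regulators 6 rose and 1 fell by limma, beside 25.5% and 28.8% of all genes. The kinase genes SCH9 and TOR1 had the largest increases, 0.99 (SE 0.15) and 0.76 (SE 0.09), with limma adjusted p of 0.00238 and 0.001. RAP1 fell by 0.89 (SE 0.24, limma adjusted p = 0.0218), a call that was lost with the scaling to all hybridisation controls (adjusted p = 0.0703), where 11 regulators rose and 0 fell, beside 39.7% and 12.3% of all genes. FHL1 and IFH1, which encode the promoter-bound factor and its coactivator, had log2 fold changes of 0.12 and 0.01 that did not pass. The FHL1 signals, 1.88 on average in Myriocin arrays and 1.75 in No-myriocin arrays, were close to background.

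Genes for the machinery around the ribosome moved in both directions. Of all genes 28.8% fell and 25.5% rose as deposited, and 12.3% and 39.7% did with all hybridisation controls as the standard. Of 13 dedicated chaperones and importers 1 fell and 2 rose, or 0 and 4 with that standard. These were FAP7, needed for late maturation of the small subunit, which fell by 0.54 as deposited (-0.23, adjusted p = 0.205 by limma, with that standard), and the histone and ribosomal protein chaperone gene NAP1 and the importin gene KAP123, which rose by 0.65 and 0.47. Of 16 ribosome-bound factors 5 fell, a share near that of all genes, and 0 rose, or 1 fell and 3 rose with all hybridisation controls as the standard. BTT1, a subunit of the nascent polypeptide-associated complex, averaged 6.29 ± 0.09 in Myriocin arrays and 8.87 ± 0.24 in No-myriocin arrays (SD, n = 3 each). It fell by 2.58 (SE 0.13, limma adjusted p = 0.000109), while the log2 fold change of EGD1, which encodes the main form of this subunit, was -0.14 (adjusted p = 0.117 by limma). LSO1 fell by 0.69, at low mean signals of 2.64 in Myriocin and 3.32 in No-myriocin arrays. LSO2 and ARD1 fell by 0.43 and 0.30, and ASC1, which encodes the yeast RACK1 protein of the small subunit head, by 0.26. With all hybridisation controls as the standard LSO1, LSO2, ARD1 and ASC1 all lost their calls (limma adjusted p from 0.211 to 0.948).

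Among translation factors, isoform genes gave the widest values. Of 10 measured elongation and termination genes 1 fell and 2 rose, on both of these scales. ANB1, the hypoxic isoform of eIF5A, averaged 11.33 ± 0.19 in Myriocin arrays and 13.88 ± 0.06 in No-myriocin arrays (SD, n = 3 each). It fell by 2.55 (SE 0.11, limma adjusted p = 5.39e-05), while HYP2, the aerobic isoform gene, had a log2 fold change of -0.002. HEF3, a paralog of the elongation factor 3 gene YEF3, rose by 1.54 (SE 0.12, limma adjusted p = 0.000296), and YEF3 stood at 0.03. CAM1, a subunit gene of elongation factor 1B, rose by 0.61. Of 23 measured initiation genes 3 fell and 4 rose, smaller shares than the 28.8% and 25.5% of all genes. With all hybridisation controls as the standard 0 fell and 12 rose, beside 12.3% and 39.7% of all genes. TIF4632, which encodes an eIF4G, and EAP1, which encodes an eIF4E-binding protein, rose by 0.91 and 0.49. SUI2 and TIF35, which encode subunits of eIF2 and eIF3, fell by 0.37 and 0.30.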

How the data were processed

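The authors deposited 1 log2 signal for each probe set and array, made with Partek, per the submitters' processing notes. The version, summarisation and normalisation were not given in the sources used here. RNA was labelled as biotinylated cRNA, per the labels' protocols. The authors' deposited table of group comparisons (ratio, signed fold score with its F statistic, p-value, per the file headers) supplied symbols and a check: its log2 ratios matched the differences of means within 5.76e-05, and its p-values under 0.05 marked 94 of the 120 genes lower and 0 higher. The shares over all genes at those p-values were not counted.

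The array has 5900 probe sets: 184 for controls, 5445 that name a single gene, 79 that name several, and 192 without a name here. The array's annotation was updated through RefSeq R64, and 5420 genes remained, 1 probe set each. The 3 Myriocin and 3 No-myriocin arrays were fitted in R 4.3.3 with limma 3.58.1 (lmFit, eBayes, adjusted p under 0.05, no filter, no covariate). An SE is limma's, except for pairs, where it and the 95% interval come from the 3 and 3 differences. Named genes are the 12 highest and 12 lowest members, the 10 widest and 4 narrowest pairs, class ranges, and up to 2 called genes per direction of each companion list. RPS9, RPS14, RPL3, RPS31, LSO2, ARD1, ASC1 and the uncalled paralogs beside companions were added after their values were seen. Some genes and pairs that this rule takes are counted but not reported here by name. Members, lists and tests were chosen with earlier results of these data known.

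Deviations from group means correlated at 0.169, 0.233 and 0.175 across all genes for equal replicate numbers. Across the ribosomal protein genes these were 0.247, 0.12 and -0.0279, with up to 0.212 for unequal numbers. The main fit left the numbers out, and a fit with them as a block was set beside it, from the data alone. On simulated arrays of 5420 genes, 33 of 80, 67 of 80 and 38 of 40 genes changed by 0.5, 1 and 2 log2 units were recovered, and 9 of 5220 unchanged ones were called. The simulated noise was independent between genes, with no array-wide shift and no upper limit of signal. Far fewer genes were changed than were called in the data, and none by less than 0.5. These rates therefore do not carry over to the ribosomal protein genes. Figures were drawn with matplotlib 3.10.9.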

Additional observations from a re-analysis of the deposited data

How the results depend on the processing

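The count of ribosomal protein genes that fell was 48 as deposited, beside 1562 of all 5420 genes. After quantile normalisation it was 30, beside 1630, a smaller share than that of all genes. It was 2 with all hybridisation controls as the standard, beside 664, and 4 with the phage cre controls, beside 1145. With an intensity trend and robust variance it was 97, beside 1653, and with the replicate block 31, beside 1471. Without single arrays it was 8 to 42, beside 1176 to 1401. At an adjusted p under 0.01 it was 5, where all genes were not counted. The count that rose, 0 as deposited, was 2, 1 and 1 under both control scalings and the intensity trend, 1 with the dimmest 25% of genes left out and 0 to 1 without single arrays. Of all genes 1384 rose as deposited, and 2153, 1608 and 1409 under both control scalings and the intensity trend. Without the dimmest 25% 1077 rose, and without single arrays 1101 to 1274. Equal array medians, averaging each gene's probe sets and leaving out probe sets that may cross-hybridise left the first count within 1.5 times. The family's median was -0.134, 0.124 and -0.0804 under quantile normalisation and the scalings to all and to cre controls, and -0.227 to -0.157 without single arrays. Large minus small ranged from -0.00232 to 0.011 without single arrays. Separated pairs, 30 in all, numbered 31 to 36 without single arrays, and 10 passed in limma. By another and looser criterion, the replicate block, 37 pairs had same-numbered differences of 1 sign. Companion genes called, 35 as deposited, numbered 23 without the dimmest 25% and 26 to 32 without single arrays. The block changed no other count by over 1.5 times. The cause of each of these changes was not tested, except that fewer arrays and fewer genes enter where some are left out.

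Signs turned by scaling to all hybridisation controls, which adds the same amount to each gene, in RPL34B (0.205), RPL26A (0.206), RPS24A (0.207), RPS26A (0.21), RPL32 (0.21), RPL40A (0.214), RPL11A (0.216), RPL2A (0.26), RPL39 (0.269), RPS9A (0.296), RPL15A (0.0833), RPL13B (0.202), RPS25A (0.192), RPS27B (0.181), RPL17A (0.165), RPL24A (0.0534), RPL24B (0.0733), RPL36A (0.181), RPL36B (0.199), RPS28A (0.181), RPS28B (0.198), RPL31A (0.142) and RPL31B (0.138). They turned with the cre controls in RPL34B (0.000489), RPL26A (0.00199), RPS24A (0.00329), RPS26A (0.00586), RPL32 (0.00636), RPL40A (0.00972), RPL11A (0.0119), RPL2A (0.0563), RPL39 (0.0652) and RPS9A (0.0923). Quantile normalisation turned RPL2A (0.00208). RPL39 (0.0194, range without single arrays -0.0856 to 0.0194) and RPS9A (0.0501, range -0.0804 to 0.0501) turned without Myriocin replicate 3, and RPS9A (0.043) without No-myriocin replicate 2. The number of arrays, 3 per group, and signals near the top of the scale limit what can be detected.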
